A study of Mus musculus with 18 samples.

Results

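The mark N6-methyladenosine (m6A) is placed on RNA by a complex with METTL3 and METTL14, is bound by reader proteins such as those of the YTH domain family, and is taken off by FTO and ALKBH5. FTO also acts on m6Am next to the cap. Translational efficiency (TE) is the amount of ribosome footprints of a gene per amount of its RNA. An RNA change is buffered where footprints do not follow it, and passed on where they do.

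TE was compared between *F*-cKO and Ctrl in the cerebral cortex at E15.5, as the interaction of assay and genotype on read counts. The labels give the genotypes as wild type (Ctrl) and as floxed *Fto* with *Emx1*-Cre (*F*-cKO), and the strain as C57BL/6. *Emx1*-Cre acts in the dorsal cortical lineage, so interneurons, endothelium, microglia and meninges of the same tissue keep *Fto*. A deletion of floxed exons also leaves reads from the other exons of *Fto*. Of the 18 libraries of both assays, 12 enter: 3 Ctrl and 3 *F*-cKO libraries of RNA-seq and of Ribo-seq. The Ribo-seq lysates contained cycloheximide and were digested with RNase I. Of 14348 genes with values in every Ribo-seq library, 13225 passed the filter on low counts and were tested.

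Counted reads per RNA-seq library, over all 55153 genes, were 22169914, 20683998 and 18504094 in Ctrl and 20995018, 20401843 and 21302488 in *F*-cKO. Over only the 14348 genes with values in every Ribo-seq library, Ribo-seq counts were 35853227, 30081796 and 31570596 in Ctrl and 20564223, 10973699 and 32954317 in *F*-cKO. By these counts *F*-cKO replicate 2 is the smallest Ribo-seq library, and the spread of depth is larger in Ribo-seq than in RNA-seq. The same counts set the depth for the marker sums below. Levels are given below as CPM (counts scaled to equal depth) after scaling by TMM over the 12 libraries, always for replicates 1, 2 and 3 in that order. Changes are log2 fold changes of *F*-cKO over Ctrl. The labels do not say whether an RNA-seq library and a Ribo-seq library of the same number share an animal.

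*Fto* itself, the gene that was targeted, had RNA of 134, 138 and 105 CPM in Ctrl and 40.3, 93.7 and 30.5 CPM in *F*-cKO. Its footprints were 322, 269.5 and 216 CPM in Ctrl and 44.3, 29.7 and 50.0 CPM in *F*-cKO. All *F*-cKO values lie below all Ctrl values in both assays, but *F*-cKO replicate 2 of RNA-seq kept far more *Fto* reads than the other *F*-cKO libraries and came close to the lowest Ctrl. In RNA-seq *Fto* fell by 1.21 (edgeR, Benjamini-Hochberg adjusted *P* 0.0298). Footprints were lowered more than RNA, with a TE change of −1.50 over 12 libraries (adjusted *P* 0.472, edgeR with Benjamini-Hochberg adjustment) and of −1.27 without *F*-cKO replicate 2 of Ribo-seq (adjusted *P* 0.283). Without *F*-cKO replicate 2 of RNA-seq the TE change was −0.875. TE of *Fto* was not called in any of these fits. Where the remaining footprints lie on the transcript was not tested.

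The 3 *F*-cKO libraries of Ribo-seq differ in their distance from Ctrl. Across all genes tested, the log2 footprint level of a library minus the Ctrl mean had a standard deviation of 0.512 in *F*-cKO replicate 1, 1.1 in replicate 2 and 0.232 in replicate 3, and of 0.241 to 0.312 when each Ctrl library was set against the other Ctrl libraries. Correlations with single Ctrl libraries over genes were 0.976 to 0.979 for replicate 1, 0.878 to 0.898 for replicate 2 and 0.991 to 0.993 for replicate 3, where Ctrl libraries correlate with each other at 0.989 to 0.993. *F*-cKO replicate 2 therefore stands apart from all others, and *F*-cKO replicate 3 is as close to Ctrl as Ctrl libraries are to each other. Genes are not independent, so these correlations only describe the libraries.

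Against the RNA changes the libraries also differ. In RNA-seq, 1955 of 16944 genes were called higher (11.5%) and 1621 lower (9.57%) at a Benjamini-Hochberg adjusted *P* below 0.05 in edgeR, and 3315 of these genes were also tested for TE, 1880 higher (14.2% of genes tested) and 1435 lower (10.9%). The RNA-seq counts fall to 984 higher and 559 lower without RNA-seq Ctrl replicate 3, to 1148 and 812 without RNA-seq *F*-cKO replicate 2, and to 1481 and 947 without RNA-seq Ctrl replicate 1. Over the 3315 genes, *F*-cKO replicate 1 deviated in footprints in the direction of the RNA change for 79% of genes (slope 0.705, correlation 0.725), replicate 2 for 61.5% (slope 0.478, correlation 0.259) and replicate 3 for 30.3% (slope −0.161, correlation −0.463). Ctrl libraries set against the other Ctrl libraries gave 44.3%, 60.3% and 48.8%. Median footprint deviations of the genes with higher RNA were 0.185, 0.202 and −0.0539 in replicates 1, 2 and 3, and of the genes with lower RNA −0.526, −0.247 and 0.106. In RNA-seq all 3 *F*-cKO libraries carried the change, with medians of 0.384, 0.378 and 0.462 for the higher and −0.372, −0.398 and −0.523 for the lower genes. These genes were chosen by the RNA-seq values, so only the footprint values are free of that choice.

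**Figure D1:**
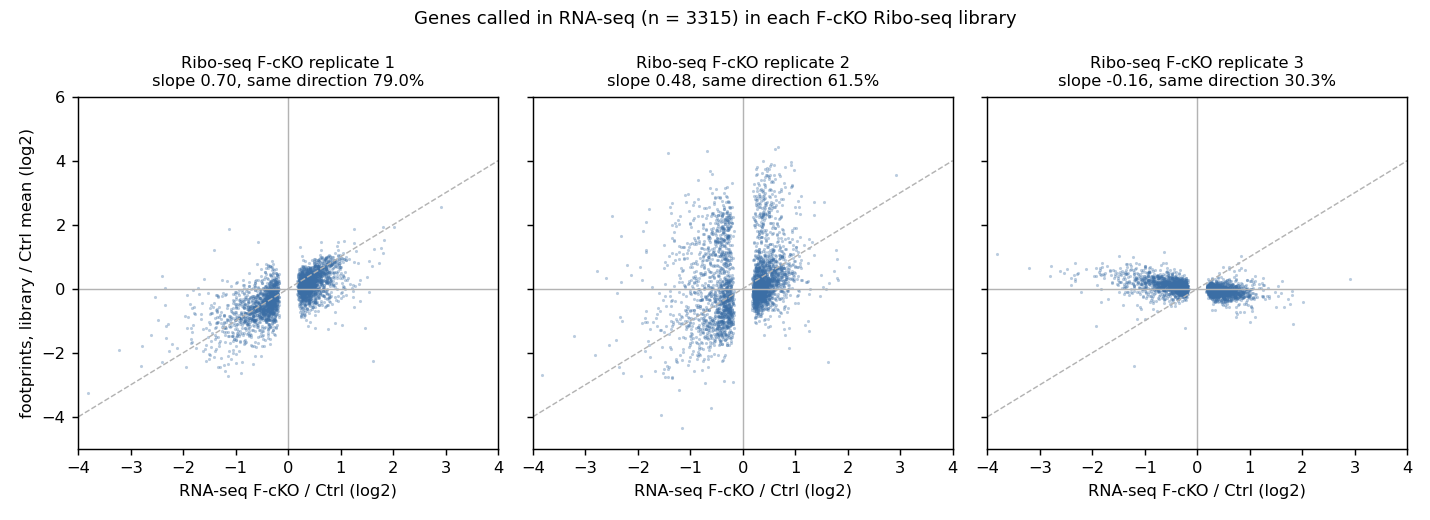
RNA change of the genes called in RNA-seq and tested for TE, against the footprint deviation of each Ribo-seq *F*-cKO library from the Ctrl mean. Each point is a gene, both axes are log2 fold changes, and the slope is 0.705 for replicate 1, 0.478 for replicate 2 and −0.161 for replicate 3.

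Since 2 of the 3 *F*-cKO libraries of Ribo-seq stand apart in this way, in different directions, counts are given over all 12 libraries, without *F*-cKO replicate 2 and without *F*-cKO replicate 3 of Ribo-seq. Leaving out replicate 2 was planned, and singling out replicate 3 was chosen after its values were seen. Whether sample handling or genotype sets these libraries apart was not tested.

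Over 12 libraries, TE was called higher for 0 and lower for 0 of 13225 genes (0%), with a smallest adjusted *P* of 0.372 (edgeR quasi-likelihood test, Benjamini-Hochberg adjustment). At an unadjusted *P* below 0.05, TE was higher for 411 genes (3.11%) and lower for 817 genes (6.18%). DESeq2 called 4 genes higher and 35 lower, and limma voom with quality weights of the libraries called 21 higher and 89 lower. More genes were lower than higher with RLE scaling (449 and 587) and DESeq2 (634 and 681) too, but not with TMM within each assay (577 higher and 513 lower at the same limit). Voom gave 727 higher and 1619 lower at this limit. A block by replicate number gave 267 and 763, and a block within genotype 205 and 628. The counts also move with single libraries, to 176 higher and 530 lower without RNA-seq Ctrl replicate 3, 261 and 352 without Ribo-seq Ctrl replicate 2 and 270 and 411 without Ribo-seq Ctrl replicate 1. The median TE change of all genes tested was −0.0107, or 0.0414 with TMM within each assay. Footprints alone gave no called gene of 14335 tested in edgeR either, with 227 higher and 91 lower at an unadjusted *P* below 0.05. DESeq2 called 5 higher and 1 lower, with 589 and 133 unadjusted. A block by replicate number in edgeR gave 76 higher and 69 lower unadjusted. With a Ribo-seq library left out, the unadjusted counts were 45 higher and 24 lower without Ctrl replicate 1, 45 and 14 without Ctrl replicate 2 and 91 and 41 without Ctrl replicate 3. They were 687 and 33 without *F*-cKO replicate 1, 339 and 218 without replicate 2 and 1741 and 1020 without replicate 3.

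Without *F*-cKO replicate 2, TE was called for 0 genes higher (0%) and for 1 gene lower, *Dcc* (0.00756%), with an adjusted *P* of 0.0497 (edgeR, Benjamini-Hochberg). Unadjusted, 812 genes were higher (6.14%) and 1008 lower (7.62%). The common biological coefficient of variation fell from 0.256 to 0.127. Of the genes at an unadjusted *P* below 0.05, both fits share 333 higher genes, 81% of those over 12 libraries and 41% of those without replicate 2, and 557 lower genes, 68.2% and 55.3%. DESeq2 called 77 genes higher and 222 lower in these 11 libraries. With *F*-cKO replicate 1 or 3 left out as well, edgeR called up to 299 genes higher and 431 lower. Those fits hold a single Ribo-seq *F*-cKO library, and the spread comes from the other groups alone.

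Without *F*-cKO replicate 3 of Ribo-seq, TE was called higher for 4 and lower for 11 of 13228 genes (0.113% in all), with a smallest adjusted *P* of 0.0224 (edgeR, Benjamini-Hochberg). Unadjusted, 1408 genes were higher (10.6%) and 1162 lower (8.78%). Leaving out *F*-cKO replicate 1 gave no call, with 1579 higher and 1290 lower unadjusted. The fits without replicate 2 and without replicate 3 share 295 higher genes, 36.3% and 21% of each list, and 487 lower genes, 48.3% and 41.9%.

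The genes with the smallest *P* for lower TE over 12 libraries begin with *Zfp41*, a zinc finger gene. Its RNA was 90.7, 85.9 and 74.8 CPM in Ctrl and 121, 115 and 128 CPM in *F*-cKO, and its footprints 43.7, 41.5 and 39.0 CPM in Ctrl and 30.8, 32.4 and 32.8 CPM in *F*-cKO. RNA of the BTB zinc finger gene *Zbtb37* was 24.6, 24.6 and 26.4 CPM in Ctrl and 40.7, 44.6 and 43.7 CPM in *F*-cKO, with footprints of 22.8, 21.5 and 25.9 CPM in Ctrl and 18.9, 21.5 and 21.4 CPM in *F*-cKO. In both genes every *F*-cKO RNA value is above every Ctrl value. Footprints of *Zfp41* are lower in all *F*-cKO libraries than in all Ctrl libraries, while those of *Zbtb37* reach from just below to the lowest Ctrl value. RNA rose by 0.52 and 0.76 (edgeR, Benjamini-Hochberg adjusted *P* 0.00409 and 0.00294). TE changes were −0.91 and −0.95 over 12 libraries, −0.86 and −0.93 without *F*-cKO replicate 2, and −0.94 and −1 without replicate 3. For *Zfp41* the adjusted *P* was 0.372 over 12 libraries and 0.0815 without replicate 2 (edgeR, Benjamini-Hochberg). The TE changes hardly move with the library that is left out. The adjusted *P* of *Zfp41* ran from 0.071 to 0.801 (edgeR, Benjamini-Hochberg) with a library left out.

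*Pank3* encodes a kinase of coenzyme A synthesis, *Atm* a kinase of the response to DNA breaks, and *Lcor* a corepressor of nuclear receptors. RNA of *Pank3* was 131, 113 and 114 CPM in Ctrl and 173, 166 and 177 CPM in *F*-cKO, with footprints of 136, 148 and 130.1 CPM in Ctrl and 123, 116 and 118 CPM in *F*-cKO. For *Atm*, RNA was 34.7, 28.4 and 28.3 CPM in Ctrl and 48.3, 48.4 and 57.0 CPM in *F*-cKO, and footprints were 182, 192 and 184 CPM in Ctrl and 183, 177 and 181 CPM in *F*-cKO. *Lcor* had RNA of 10.1, 9.91 and 7.63 CPM in Ctrl and 20.1, 19.9 and 26.3 CPM in *F*-cKO, and footprints of 17.7, 18.6 and 17.6 CPM in Ctrl and 17.3, 21.2 and 15.2 CPM in *F*-cKO. RNA of each gene is higher in all *F*-cKO libraries. Footprints of *Pank3* are all below Ctrl, and those of *Atm* and *Lcor* overlap with Ctrl. The RNA changes were 0.51, 0.73 and 1.24, all called, and the TE changes −0.74, −0.79 and −1.27.

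Further genes with a small *P* for lower TE have the same form. *Crkl*, an adaptor of tyrosine kinase signalling, had RNA of 119, 113 and 96.5 CPM in Ctrl and 149.6, 147 and 148 CPM in *F*-cKO, and footprints of 118, 119 and 115 CPM in Ctrl and 102, 102 and 103 CPM in *F*-cKO. *Nynrin*, which has a ribonuclease domain, had RNA of 13.4, 11.8 and 10.7 CPM in Ctrl and 21.5, 23.0 and 21.1 CPM in *F*-cKO, and footprints of 41.2, 42.3 and 39.4 CPM in Ctrl and 45.0, 41 and 41.4 CPM in *F*-cKO. RNA was higher in each *F*-cKO library for both genes, and footprints were below Ctrl for *Crkl* and within or above Ctrl for *Nynrin*. TE changes were −0.64 and −0.82. The predicted genes *Gm16001* and *Gm20186*, of unknown function, had TE changes of −1.51 and −1.85 at RNA levels of only 1.40, 1.56 and 1.28 CPM in Ctrl and 2.76, 2.93 and 3.21 CPM in *F*-cKO and 3.44, 4.02 and 2.46 CPM in Ctrl and 5.67, 5.35 and 6.06 CPM in *F*-cKO. All genes named here for lower TE over 12 libraries had higher RNA that was called.

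Among the 10 genes with the smallest *P* for higher TE, *Cst3* encodes a secreted inhibitor of proteases, *Gm2a* an activator protein of lysosomes, and *Rnase4* a secreted ribonuclease. RNA of *Cst3* was 157, 147 and 159 CPM in Ctrl and 119.5, 110.3 and 119 CPM in *F*-cKO, with footprints of 75.2, 85.0 and 56.1 CPM in Ctrl and 111, 150.3 and 94.1 CPM in *F*-cKO. RNA of *Gm2a* was 25.7, 25.9 and 30.2 CPM in Ctrl and 21.3, 17.6 and 19.7 CPM in *F*-cKO, with footprints of 12.5, 12.7 and 13.9 CPM in Ctrl and 15.7, 24.2 and 17.1 CPM in *F*-cKO. RNA of *Rnase4* was 6.75, 6.70 and 6.20 CPM in Ctrl and 4.15, 3.49 and 4.10 CPM in *F*-cKO, with footprints of 4.31, 3.44 and 4 CPM in Ctrl and 5.54, 7.82 and 5.21 CPM in *F*-cKO. In these genes RNA is lower and footprints are higher in all *F*-cKO libraries than in all Ctrl libraries, and the highest footprint value is that of *F*-cKO replicate 2. RNA changes were −0.42, −0.49 and −0.76, all called. TE changes were 1.13, 1.02 and 1.39 over 12 libraries and 0.98, 0.86 and 1.25 without replicate 2. *Rnase4* overlaps *Ang* in the genome, so its reads are uncertain.

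*Cmtm3*, a membrane protein gene, had RNA of 20.4, 23.0 and 22.8 CPM in Ctrl and 16.4, 16.3 and 15.6 CPM in *F*-cKO, and footprints of 3.57, 4.45 and 4.30 CPM in Ctrl and 5.05, 7.71 and 5.18 CPM in *F*-cKO. *Ssh3*, a phosphatase of cofilin, had RNA of 16.3, 16.9 and 22.1 CPM in Ctrl and 8.98, 9.48 and 9.54 CPM in *F*-cKO, and footprints of 2.99, 2.84 and 2.68 CPM in Ctrl and 2.25, 3.43 and 4.73 CPM in *F*-cKO. *Plekhh2*, a regulator of actin in podocytes, had footprints of 4.53, 3.77 and 3.05 CPM in Ctrl and 6.64, 6.00 and 7.21 CPM in *F*-cKO and RNA of 2.80, 2.41 and 3.02 CPM in Ctrl and 2.03, 2.51 and 2.27 CPM in *F*-cKO. RNA was lower in each *F*-cKO library for *Cmtm3* and *Ssh3*, and RNA of *Plekhh2* was not called. Footprints of *Cmtm3* and *Plekhh2* lay above all Ctrl values, and those of *Ssh3* overlapped with Ctrl. TE changes were 0.98, 1.28 and 1.08. Few reads underlie the secreted glycoprotein gene *Creg2* (2.01), the immune cofactor gene *Ly86* (1.10) and the pseudogene *Gm4247* (1.47). *Rn7sk* (TE change 2.28) is a noncoding RNA of the transcription machinery, which had 43.9, 61.7 and 74.7 CPM in Ctrl and 214, 114 and 76.9 CPM in *F*-cKO in Ribo-seq and under 2 CPM in RNA-seq, so its fragments need not be footprints.

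**Figure D2:**
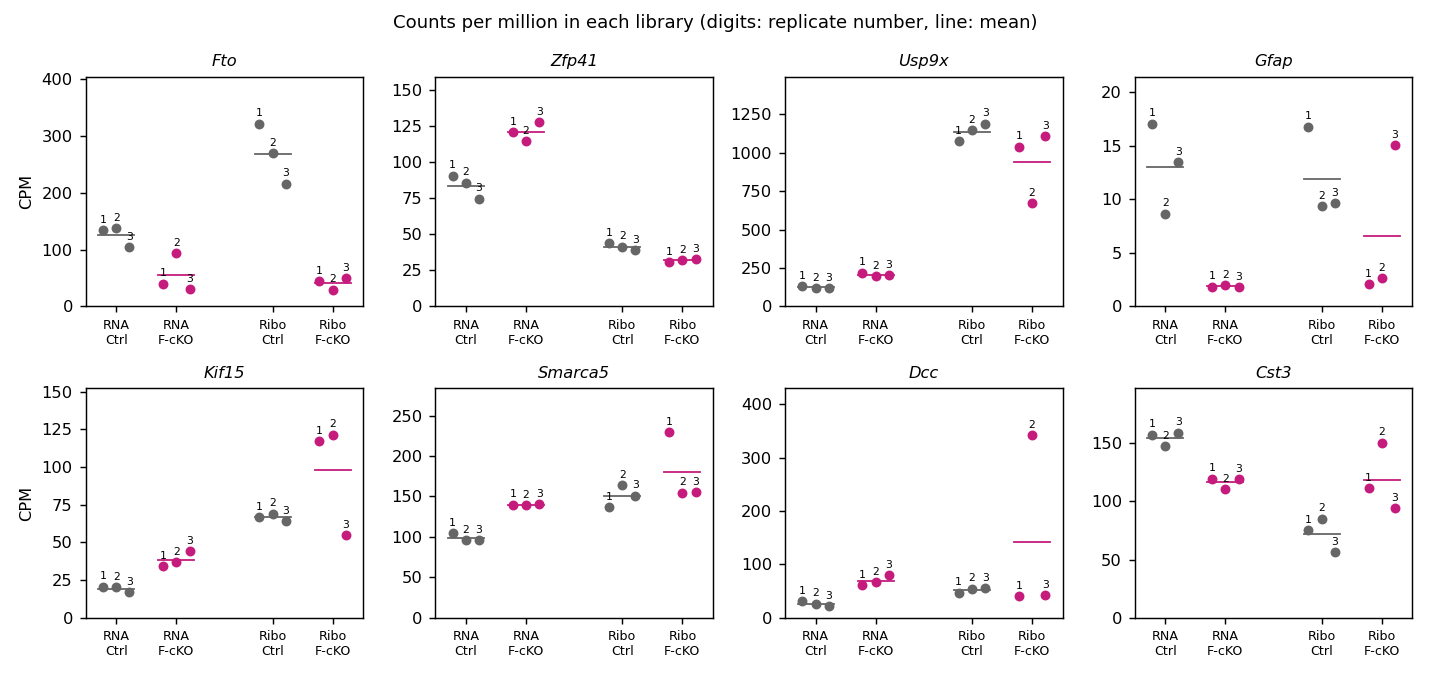
Scaled CPM of 8 genes in every library of both assays. *Dcc* has 342 CPM of footprints in *F*-cKO replicate 2 and at most 56.1 CPM in every other Ribo-seq library.

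Without *F*-cKO replicate 2, *Dcc* is the only gene with called TE in edgeR. It encodes a netrin receptor of axons. Its RNA was 31.3, 26.4 and 21.8 CPM in Ctrl and 60.4, 66.9 and 79.8 CPM in *F*-cKO, and its footprints 47.2, 54.5 and 56.1 CPM in Ctrl and 40.4, 342 and 42.9 CPM in *F*-cKO. RNA is higher in all *F*-cKO libraries, footprints are slightly below Ctrl in replicates 1 and 3, and replicate 2 lies far above every other library. RNA rose by 1.36, and the TE change was 0.04 over 12 libraries (adjusted *P* 0.989, edgeR with Benjamini-Hochberg adjustment), −1.67 without replicate 2 and 0.37 without replicate 3. The call is close to the limit. Leaving out a further library, 1 of RNA-seq Ctrl replicates 2 and 3, Ribo-seq Ctrl replicates 2 and 3 or any RNA-seq *F*-cKO replicate, or dropping the filter on low counts, left 0 genes lower (edgeR).

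The same form holds for other genes of membrane proteins. *Fzd3*, a Wnt receptor of axon guidance, had RNA of 174, 149.9 and 159.7 CPM in Ctrl and 232, 226 and 239.8 CPM in *F*-cKO, and footprints of 32.7, 41.2 and 40.8 CPM in Ctrl and 23.5, 157 and 28.5 CPM in *F*-cKO. *Plxna2*, a semaphorin receptor, had RNA of 483, 463 and 417 CPM in Ctrl and 621, 601 and 709.5 CPM in *F*-cKO, and footprints of 133, 142 and 151 CPM in Ctrl and 102, 806 and 119 CPM in *F*-cKO. *Ptprf*, a receptor phosphatase, had RNA of 203, 215 and 191 CPM in Ctrl and 248, 269 and 263 CPM in *F*-cKO, and footprints of 27.3, 28.8 and 29.3 CPM in Ctrl and 20.5, 249 and 23.5 CPM in *F*-cKO. RNA of all 3 is higher in each *F*-cKO library, and footprints are lower than Ctrl in replicates 1 and 3 and several times higher than Ctrl in replicate 2. TE changes without replicate 2 were −1.03, −0.82 and −0.68, against 0.32, 0.76 and 1.41 over 12 libraries. *Pag1*, a membrane adaptor of Src kinases, had opposite signs in the same way (−0.82 and 0.11).

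*Usp9x*, a deubiquitinase, is in this group by a different form. Its RNA was 133, 120.1 and 117 CPM in Ctrl and 219, 199 and 203 CPM in *F*-cKO, and its footprints 1077, 1147 and 1190.5 CPM in Ctrl and 1040.2, 672 and 1108 CPM in *F*-cKO. RNA is higher in all *F*-cKO libraries, while footprints of replicates 1 and 3 are close to Ctrl and replicate 2 is lowest. The TE change was −1.02 over 12 libraries and −0.78 without replicate 2 (adjusted *P* 0.0815, edgeR with Benjamini-Hochberg adjustment). *Rhno1*, a gene of the checkpoint at stalled replication, had no called RNA change and footprints of 13.5, 12.6 and 13.5 CPM in Ctrl and 7.63, 13.8 and 7.83 CPM in *F*-cKO, which were low in replicates 1 and 3 only.

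Higher TE without *F*-cKO replicate 2 was led by *Rpl35*, *Erp29*, *Prr3*, *Rnase4*, *Nenf*, *Gm2a*, *Cst3*, *Npdc1*, *Ptn* and *Dio2*. *Erp29* encodes a protein of the lumen of the endoplasmic reticulum and *Ptn* a secreted growth factor. RNA of *Erp29* was 84.1, 88.6 and 96.8 CPM in Ctrl and 73.0, 68.3 and 73.5 CPM in *F*-cKO, with footprints of 20.6, 18.2 and 18.5 CPM in Ctrl and 30.9, 81.5 and 24.0 CPM in *F*-cKO, and RNA of *Ptn* was 537, 539.9 and 656 CPM in Ctrl and 436, 402 and 388 CPM in *F*-cKO, with footprints of 228, 268 and 287 CPM in Ctrl and 401, 824 and 293 CPM in *F*-cKO. For both genes RNA is lower and footprints are higher in every *F*-cKO library, and replicate 2 is highest. TE changes were 0.90 and 0.97 without replicate 2 and 1.57 and 1.46 over 12 libraries. The secreted neurotrophic factor gene *Nenf* (0.85) and the deiodinase gene *Dio2* (1.52) had less RNA, with footprints in replicates 1 and 3 within Ctrl for *Nenf* and on both sides of Ctrl for *Dio2*. *Npdc1*, a neural membrane protein gene (0.56), and *Prr3*, a gene of a zinc finger protein (0.60), had no called RNA change. *Rpl35*, a ribosomal protein gene (0.70), shares reads with copies in the genome and is uncertain.

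Genes called without *F*-cKO replicate 3 were chosen after their values were seen. Among the 11 lower genes, *Klf7*, a transcription factor gene of axon growth, had footprints of 142, 138 and 120.1 CPM in Ctrl and 64.1, 69.2 and 133 CPM in *F*-cKO, and *Rab39b*, a gene of vesicle transport, of 17.7, 21.1 and 18.9 CPM in Ctrl and 7.13, 8.89 and 13.8 CPM in *F*-cKO. Among the 4 higher genes, *Mesd*, a chaperone gene of Wnt receptors, had footprints of 7.78, 8.18 and 6.26 CPM in Ctrl and 17.1, 21.0 and 8.11 CPM in *F*-cKO, and *Manf*, a gene of a secreted stress factor, of 47.5, 47.5 and 50.1 CPM in Ctrl and 92.9, 156 and 50.7 CPM in *F*-cKO. In replicates 1 and 2 all 4 genes lie beyond Ctrl, and replicate 3 lies nearest to Ctrl. TE changes without replicate 3 were −1.44 for *Klf7* (adjusted *P* 0.0224, edgeR with Benjamini-Hochberg adjustment), −1.40 for *Rab39b*, 1.46 for *Mesd* and 1.41 for *Manf*. *Actg1* (−2.02), *Rplp1* (−1.27) and *Rpl36* (1.18) were also called, but share reads with copies. The rest were *Gm38399*, *Snn*, *Tcp11l1*, *Gm44349*, *Shc3*, *Gm21926* and *Hint3* among the lower genes and *Cnpy4* among the higher genes.

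To separate buffered from passed on changes, the footprint change of each of the 3315 genes was divided by its RNA change in the same fit. A ratio of −0.5 or less was named opposite, between −0.5 and 0.5 buffered, from 0.5 to 1.5 passed on, and above 1.5 larger in footprints. Over 12 libraries, 542 genes were opposite (16.3%), 1483 buffered (44.7%), 960 passed on (29%) and 330 larger in footprints (9.95%). Without *F*-cKO replicate 2 the counts were 231 (6.97%), 2134 (64.4%), 887 (26.8%) and 63 (1.9%). Without replicate 3 they were 631 (19%), 965 (29.1%), 1057 (31.9%) and 663 (20%) of 3316. Buffered is thus the most frequent class over 12 libraries and without replicate 2, and passed on is the most frequent without replicate 3. The order also depends on the limit, as a ratio of 0.25 in place of 0.5 gave 792 buffered and 1491 passed on genes over 12 libraries. Leaving out replicate 1 gave 892 opposite, 1422 buffered and 639 passed on genes. RNA-seq libraries change how many genes are called and so all classes, down to 176 opposite, 682 buffered, 465 passed on and 142 larger genes without RNA-seq Ctrl replicate 3. Without RNA-seq *F*-cKO replicate 2 there were 232, 956, 498 and 149, and without RNA-seq Ctrl replicate 1 there were 300, 1224, 581 and 179. Without RNA-seq Ctrl replicate 2, opposite and larger genes numbered 345 and 201.

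Single libraries show how far the classes are a mixture. With the footprint deviation of 1 *F*-cKO library set against the RNA change, replicate 1 gave 1452 passed on and 1027 buffered genes, replicate 2 gave 689 and 749, and replicate 3 gave 151 and 2677. Opposite genes numbered 335, 950 and 484, and larger ones 501, 927 and 3. Each Ctrl library set against the other Ctrl libraries gave 2200, 2679 and 2220 buffered and 422, 394 and 504 passed on genes, so a library without any change also gives mostly buffered genes. Replicate 1 has more passed on genes than any Ctrl library, replicate 3 has classes close to those of a Ctrl library with fewer passed on, and replicate 2 spreads over all classes.

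**Figure D3:**
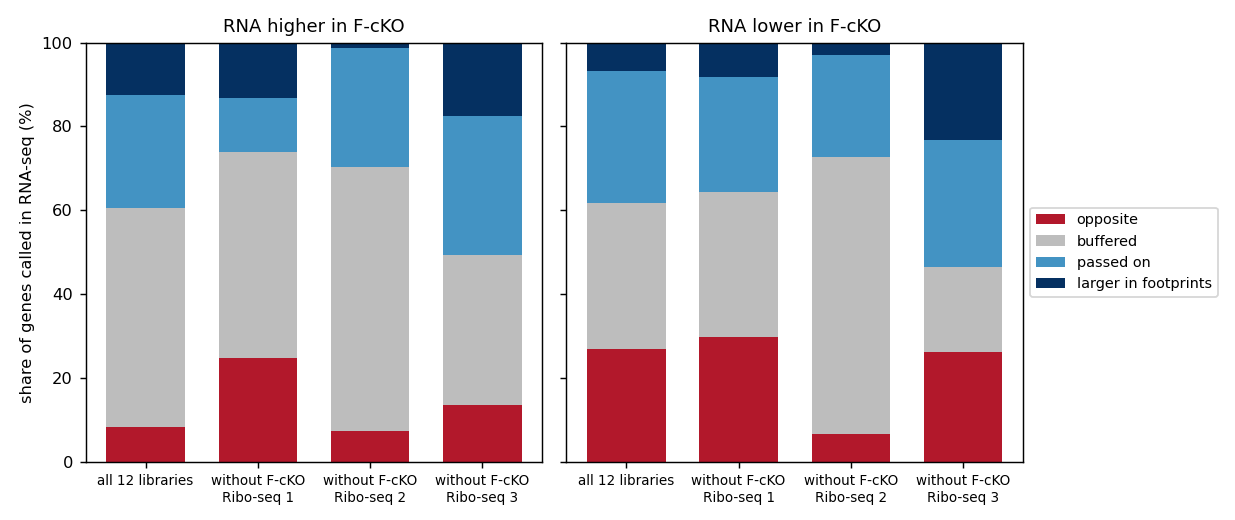
Share of genes in each class among genes with higher and with lower RNA, for the fit over 12 libraries and for the fits without 1 Ribo-seq *F*-cKO library. Buffered genes make up 44.7% over 12 libraries, 64.4% without replicate 2 and 29.1% without replicate 3.

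Of 1880 genes with higher RNA over 12 libraries, 156 were opposite (8.3%), 984 buffered (52.3%), 508 passed on (27%) and 232 larger in footprints (12.3%). Of 1435 genes with lower RNA, 386 were opposite (26.9%), 499 buffered (34.8%), 452 passed on (31.5%) and 98 larger (6.83%). Without *F*-cKO replicate 2, the opposite genes among those with lower RNA numbered 95 and the buffered ones 950, so most of the opposite genes of the 12 libraries rest on replicate 2. Among genes with higher RNA, buffered genes numbered 1184 and passed on genes 538 without replicate 2.

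Median changes over 12 libraries were 0.404 in RNA and 0.146 in footprints for the genes with higher RNA, and −0.433 and −0.143 for the genes with lower RNA. Without replicate 2 they were 0.386 and 0.108, and −0.45 and −0.125. Without replicate 1 the footprint medians were −0.0193 and −0.124, and without replicate 3 they were 0.206 and −0.335, so the median of genes with higher RNA is above 0 only where replicate 1 is kept. In the passed on class the medians were 0.467 in RNA and 0.376 in footprints for higher genes, and −0.418 and −0.388 for lower genes. Buffered genes had 0.406 and 0.0407, and −0.662 and −0.0778. The slope of footprint on RNA changes was 0.281 over 12 libraries (correlation 0.308), 0.227 without replicate 2 (0.504), 0.556 without replicate 3 (0.436) and 0.108 without replicate 1 (0.103).

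Both changes had the same sign for 2226 of the 3315 genes (67.1%) over 12 libraries, 2466 (74.4%) without replicate 2 and 2292 (69.1%) without replicate 3, but 1730 of 3316 (52.2%) without replicate 1. Where the interaction had an unadjusted *P* below 0.05, TE moved against the RNA change in 777 of 778 genes over 12 libraries, 1040 of 1041 without replicate 2, 650 of 795 without replicate 3 and 1491 of 1526 without replicate 1. The RNA value enters TE with a negative sign and the genes were chosen by RNA, so part of this direction is fixed by the choice. Of the passed on genes, 223 had an unadjusted footprint *P* below 0.05 in edgeR (196 without replicate 2, 609 without replicate 3 and 63 without replicate 1), and of the buffered and opposite genes 527 and 250 had an unadjusted interaction *P* below 0.05 (828 and 212, 226 and 424, and 676 and 815 in the same fits). The groups of footprint values did not overlap between *F*-cKO and Ctrl for 414 genes above (3.13% of genes tested) and 624 below (4.72%). Among genes with higher RNA, 66 lay above Ctrl (3.51%) and 62 below (3.3%), and among genes with lower RNA 58 lay below (4.04%) and 19 above (1.32%).

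Classes were partly shared between fits. With and without *F*-cKO replicate 2, 1188 genes were buffered in both, 80.1% and 55.7% of each list, 424 were passed on in both (44.2% and 47.8%), 112 were opposite in both (20.7% and 48.5%) and 31 were larger in both (9.39% and 49.2%). In all 4 fits, with 12 libraries and with each Ribo-seq *F*-cKO library left out, 389 genes with higher and 168 with lower RNA were buffered, and 51 and 26 were passed on. Genes opposite in all 4 fits numbered 52 and 40, and genes larger in footprints 5 and 16. The 4 fits share all Ctrl and most *F*-cKO libraries, and libraries close to Ctrl give mostly buffered genes, so these counts do not weigh the classes against each other.

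Passed on genes with the smallest RNA-seq *P* and higher RNA include *Kif15*, a kinesin gene of the spindle, *Smc2*, a condensin subunit gene, and *Smarca5*, a gene of chromatin remodelling. RNA of *Kif15* was 20.6, 20.2 and 16.8 CPM in Ctrl and 34.3, 37.0 and 44.1 CPM in *F*-cKO, with footprints of 66.8, 69.1 and 64.3 CPM in Ctrl and 117, 122 and 54.8 CPM in *F*-cKO. *Smc2* had RNA of 44.1, 39.9 and 36.9 CPM in Ctrl and 64.7, 68.5 and 78.6 CPM in *F*-cKO, and footprints of 103, 107 and 118 CPM in Ctrl and 194, 172 and 105 CPM in *F*-cKO, and *Smarca5* RNA of 105, 96.4 and 95.7 CPM in Ctrl and 139.8, 139.8 and 140.3 CPM in *F*-cKO, and footprints of 137, 164 and 151 CPM in Ctrl and 229.6, 155 and 155 CPM in *F*-cKO. RNA is higher in all *F*-cKO libraries. Footprints of *Kif15* and *Smc2* are higher in replicates 1 and 2 but within or below Ctrl in replicate 3, and those of *Smarca5* are clearly higher in replicate 1 only. RNA rose by 0.98, 0.79 and 0.49, and footprint changes over 12 libraries were 0.55, 0.52 and 0.26. *Dcc* and the activin receptor gene *Acvr2b* complete these 5 genes, and both are passed on through replicate 2 alone. Footprints of *Acvr2b* were 7.42, 10.2 and 7.69 CPM in Ctrl and 8.34, 42.4 and 6.59 CPM in *F*-cKO.

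Passed on genes with lower RNA include *Fth1*, which encodes the heavy chain of ferritin, and *Sgk1*, which encodes a kinase under glucocorticoid control. RNA of *Fth1* was 410.5, 417 and 433 CPM in Ctrl and 317, 299 and 289 CPM in *F*-cKO and its footprints were 988, 755 and 684 CPM in Ctrl and 537, 515 and 911 CPM in *F*-cKO. RNA of *Sgk1* was 23.8, 22.2 and 25.7 CPM in Ctrl and 15.2, 14.0 and 13.8 CPM in *F*-cKO and its footprints were 36.3, 29.9 and 36.3 CPM in Ctrl and 18.9, 13.0 and 42.6 CPM in *F*-cKO. RNA is lower in all *F*-cKO libraries, whereas footprints are lower in replicates 1 and 2 and within or above Ctrl in replicate 3. *Rapgefl1*, a gene of a guanine nucleotide exchange factor, had footprints of 21.3, 15.7 and 16 CPM in Ctrl and 11.6, 8.36 and 19.8 CPM in *F*-cKO. The lncRNAs *C230057M02Rik* and *Gm17750* had footprints of 7.58, 5.27 and 5.54 CPM in Ctrl and 2.08, 2.46 and 6.45 CPM in *F*-cKO and of 58.2, 65.2 and 71.2 CPM in Ctrl and 29.5, 30.2 and 57.0 CPM in *F*-cKO. Replicate 3 is highest of the *F*-cKO libraries for each of the 5 genes.

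Buffered genes with higher RNA with the smallest RNA-seq *P* are *Zbtb37* and *Usp9x*, given above, *Hipk2*, *Tbr1* and *Soga1*. *Hipk2*, a kinase gene of transcription control, had RNA of 33.2, 26.4 and 21.3 CPM in Ctrl and 71.2, 66.1 and 73.2 CPM in *F*-cKO, and footprints of 47.0, 46.6 and 50.5 CPM in Ctrl and 57.5, 100.2 and 40.9 CPM in *F*-cKO. *Tbr1*, a transcription factor gene of deep-layer neurons, had RNA of 232, 220.2 and 212 CPM in Ctrl and 320.3, 330.0 and 334 CPM in *F*-cKO, and footprints of 672, 642 and 601 CPM in Ctrl and 710.4, 477 and 589 CPM in *F*-cKO. *Soga1*, a gene linked to microtubules and autophagy, had RNA of 81.7, 72.8 and 60.4 CPM in Ctrl and 156, 140.3 and 147 CPM in *F*-cKO, and footprints of 389, 335 and 280.3 CPM in Ctrl and 373, 283 and 389 CPM in *F*-cKO. RNA is higher in all *F*-cKO libraries for the 3 genes, and footprints lie on both sides of Ctrl in *Hipk2* and *Tbr1* and within Ctrl in *Soga1*. RNA rose by 1.36, 0.55 and 1.03, with TE changes of −0.92, −0.68 and −0.99.

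The 5 buffered genes with lower RNA and the smallest RNA-seq *P* are passed on without replicate 3. *Gfap*, an astroglial filament gene, had RNA of 17.1, 8.66 and 13.5 CPM in Ctrl and 1.84, 2.00 and 1.78 CPM in *F*-cKO, and footprints of 16.8, 9.34 and 9.69 CPM in Ctrl and 2.08, 2.68 and 15.1 CPM in *F*-cKO. *Crym*, a gene of a thyroid hormone binding protein, had RNA of 80.0, 78.9 and 89.5 CPM in Ctrl and 38.1, 42.4 and 33.3 CPM in *F*-cKO, and footprints of 196, 207 and 168 CPM in Ctrl and 106, 67.0 and 221 CPM in *F*-cKO. *Grp*, a neuropeptide gene, had RNA of 7.98, 7.68 and 9.94 CPM in Ctrl and 2.76, 2.56 and 2.27 CPM in *F*-cKO, and footprints of 5.62, 5.12 and 4.26 CPM in Ctrl and 1.32, 2.04 and 7 CPM in *F*-cKO. Replicates 1 and 2 of *F*-cKO follow the RNA in these genes, and replicate 3 is within or above Ctrl, so the class arises from the mean of unlike libraries. RNA fell by 2.81, 1.14 and 1.76, and TE changes of *Gfap* were 1.99 over 12 libraries and 0.45 without replicate 3. *Fmo1*, a monooxygenase gene, and *Grm2*, a glutamate receptor gene, showed the same in part, with footprints of 21.6, 26.7 and 28.4 CPM in Ctrl and 15.9, 6.75 and 36.1 CPM in *F*-cKO and of 2.51, 5.27 and 3.47 CPM in Ctrl and 1.70, 2.79 and 3.83 CPM in *F*-cKO.

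Some passed on genes hold in all 4 fits, and the following were chosen after their values were seen. *Eef2k* encodes the kinase that slows elongation, *Trmt9b* a tRNA methyltransferase homologue and *Knop1* a nucleolar protein. RNA of *Eef2k* was 76.8, 78.3 and 75.1 CPM in Ctrl and 61.1, 60.0 and 63.8 CPM in *F*-cKO, with footprints of 74.2, 75.0 and 67.9 CPM in Ctrl and 59.4, 56.8 and 65.0 CPM in *F*-cKO. *Trmt9b* had RNA of 17.6, 19.2 and 23.3 CPM in Ctrl and 10.5, 11.7 and 10.1 CPM in *F*-cKO, and footprints of 21.5, 20.9 and 24.5 CPM in Ctrl and 11.4, 11.7 and 18.8 CPM in *F*-cKO, and *Knop1* RNA of 60.5, 57.1 and 53.9 CPM in Ctrl and 82.2, 80.0 and 94.7 CPM in *F*-cKO, and footprints of 42.6, 40.5 and 43.3 CPM in Ctrl and 68.2, 61.1 and 48.3 CPM in *F*-cKO. In all 3 genes both assays have *F*-cKO values wholly on 1 side of Ctrl. RNA changes were −0.33, −0.90 and 0.57, and footprint changes −0.26, −0.67 and 0.49. *Ndufb6*, a subunit of complex I, fell by 0.30 in RNA with footprints of 98.2, 89.8 and 89.4 CPM in Ctrl and 73.0, 71.4 and 82.9 CPM in *F*-cKO.

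Gene lists are given below by counts at an unadjusted *P* below 0.05 and by median TE change, beside all genes tested with 411 higher and 817 lower of 13225 and a median of −0.0107, and without *F*-cKO replicate 2 with 812 and 1008 and a median of −0.0133. Without replicate 3 these were 1408, 1162 and −0.054, and without replicate 1 they were 1579, 1290 and −0.067. Footprint medians of all genes tested were −0.0921, −0.0108 and 0.00872 in *F*-cKO replicates 1, 2 and 3. In RNA-seq, 14.2% of all genes tested for TE were called higher and 10.9% lower. Counts of initiation factors and zinc finger genes with higher RNA, and of mitochondrial ribosomal proteins with lower RNA, are near these shares. In edgeR no list member was called over 12 libraries or without replicate 2, while DESeq2 and voom called *Zfp41* and *Zbtb37* lower over 12 libraries. Among the other genes whose values were kept for both tools, both called *Cst3* higher and *Pank3* lower. DESeq2 also called *Gm2a* higher, and voom called *Rnase4* and *Erp29* higher and *Dcc* and *Fzd3* lower. Without replicate 3, TE was called for 1 gene among chaperones of the endoplasmic reticulum, 2 among cytosolic ribosomal proteins and 1 in the RGC list of the study (edgeR).

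**Figure D4:**
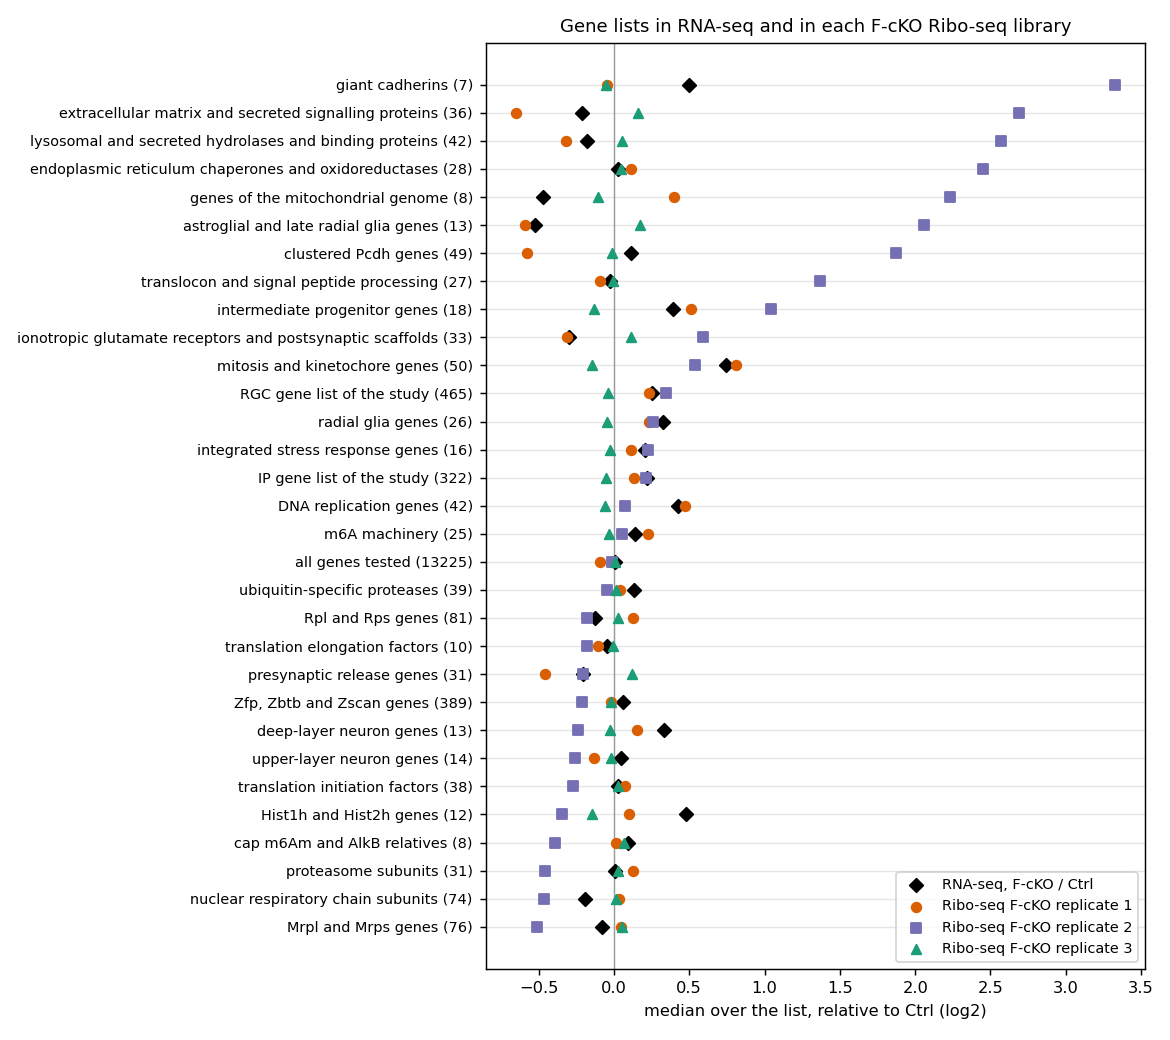
Median change of gene lists in RNA-seq and in each Ribo-seq *F*-cKO library against the Ctrl mean, as log2 fold changes. Footprints of mitosis and kinetochore genes have medians of 0.81, 0.539 and −0.149 in *F*-cKO replicates 1, 2 and 3.

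Of 25 genes of the m6A machinery, 8 had higher and 1, *Fto* itself, lower RNA. TE was lower for 4 (*Fto*, *Ythdf3*, *Virma* and *Rbm15*) and higher for 0, and the median TE change was −0.128, or −0.0731 with 3 lower genes without replicate 2 and −0.267 with 6 lower genes without replicate 1. The eraser gene *Alkbh5* had RNA of 69.8, 73.4 and 60.8 CPM in Ctrl and 84.0, 88.2 and 83.4 CPM in *F*-cKO, and footprints of 40.0, 39.0 and 34.2 CPM in Ctrl and 30.0, 43.3 and 32.9 CPM in *F*-cKO. The reader gene *Ythdf3* had RNA of 104, 95.9 and 93.0 CPM in Ctrl and 115, 120.4 and 126 CPM in *F*-cKO, and footprints of 199, 195 and 167 CPM in Ctrl and 179.6, 150 and 183 CPM in *F*-cKO. *Rbm15*, which guides the writer complex, had RNA of 20.4, 19.3 and 16.3 CPM in Ctrl and 25.1, 26.8 and 26.3 CPM in *F*-cKO, and footprints of 74.0, 69.9 and 54.5 CPM in Ctrl and 76.5, 55.6 and 62.5 CPM in *F*-cKO. RNA of these genes is higher in all *F*-cKO libraries, and footprints lie within or below Ctrl except for 1 value each of *Alkbh5* and *Rbm15*. TE changes were −0.42, −0.44 and −0.51 over 12 libraries and −0.53, −0.30 and −0.35 without replicate 2.

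Among writers, RNA of *Virma* was 70.5, 65.8 and 62.8 CPM in Ctrl and 92.1, 86.8 and 87.7 CPM in *F*-cKO, with footprints of 216, 235 and 232 CPM in Ctrl and 269, 218 and 228 CPM in *F*-cKO, which is buffered. *Zc3h13* had a small rise of 0.22 in RNA and footprints of 269, 276 and 313 CPM in Ctrl and 388, 324 and 312 CPM in *F*-cKO. RNA of the catalytic subunit *Mettl3* was 28.2, 30.9 and 24.7 CPM in Ctrl and 30.3, 29.5 and 25.6 CPM in *F*-cKO, with footprints of 44.4, 44.2 and 47.6 CPM in Ctrl and 42.6, 49.0 and 42.3 CPM in *F*-cKO. *Mettl3*, *Mettl14* and *Wtap* were not called in RNA-seq and had TE changes of −0.06, 0.00 and −0.29. Footprints of *Mettl14* were 56.9, 60.2 and 65.5 CPM in Ctrl and 81.0, 69.1 and 61.6 CPM in *F*-cKO and those of *Wtap* 94.8, 85.3 and 80.9 CPM in Ctrl and 81.5, 53.6 and 81.5 CPM in *F*-cKO. Among readers, the growth-linked genes *Igf2bp2* and *Igf2bp3* rose by 0.81 and 0.61 in RNA, with footprints of 24.5, 24.8 and 28.4 CPM in Ctrl and 43.6, 61.5 and 21.4 CPM in *F*-cKO and of 46.0, 48.4 and 51.5 CPM in Ctrl and 65.5, 71.4 and 42.5 CPM in *F*-cKO, high in replicates 1 and 2 and below Ctrl in replicate 3. *Prrc2a* rose by 0.31 in RNA with footprints of 399, 374 and 311 CPM in Ctrl and 431, 473 and 357 CPM in *F*-cKO and is passed on. Over 12 libraries, the 8 genes with higher RNA are 5 buffered and 3 passed on. Without replicate 2 they are 1 opposite, 5 buffered, 1 passed on and 1 larger. Without replicate 3 they are 1 opposite, 3 buffered and 4 passed on. Of 8 genes of the cap mark and of AlkB relatives, 2 had higher RNA, 1 had lower TE, and the median was −0.0735.

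Of 38 initiation factor genes, 6 had higher RNA, 4 buffered and 2 passed on, or 3 and 3 without replicate 2 or replicate 3. TE was higher for 1 and lower for 1 with a median of −0.13. Medians were 0.038 without replicate 2, −0.159 without replicate 3 and −0.259 without replicate 1. *Eif2s2*, a subunit of the factor that brings initiator tRNA, had footprints of 125, 133 and 151 CPM in Ctrl and 200.2, 179 and 159.7 CPM in *F*-cKO and a TE change of 0.43. Its footprints are higher in all *F*-cKO libraries. Of 10 elongation factor genes, 2 had lower RNA, and TE was higher for 0 with a median of −0.0091 over 12 libraries (0.0441 with TMM within each assay). Without replicate 2 TE of 2 was higher with a median of 0.108, and without replicates 3 and 1 the medians were −0.0628 and −0.149. Of 16 genes of the integrated stress response, 4 had higher RNA, and TE was higher for 0 and lower for 0 with a median of −0.0569. Without replicate 3 TE was higher for 2 of them, and without replicate 1 lower for 3 with a median of −0.11.

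Mitosis and kinetochore genes had RNA changes that 2 of the 3 *F*-cKO libraries carried into footprints. Of 50 such genes, 49 had higher RNA, 29 passed on and 20 buffered over 12 libraries, and 30 and 19 without replicate 2. TE was lower for 3 and higher for 0, with a median of −0.324 (−0.315 without replicate 2). Without replicate 3, 42 were passed on, 5 buffered and 0 lower in TE, with a median of −0.117, and without replicate 1 TE was lower for 31 with a median of −0.613. Footprint medians were 0.81 in *F*-cKO replicate 1, 0.539 in replicate 2 and −0.149 in replicate 3, and footprints lay above all Ctrl values for 49, 47 and 0 genes, beside 3785, 5668 and 2742 of all 13225 genes tested. *Mki67*, a marker of dividing cells, had RNA of 126, 115 and 110.0 CPM in Ctrl and 206, 200.1 and 279.7 CPM in *F*-cKO, and footprints of 277, 287 and 318 CPM in Ctrl and 606, 576 and 267 CPM in *F*-cKO. RNA is higher in all *F*-cKO libraries, and footprints are about double in replicates 1 and 2 and below all Ctrl values in replicate 3.

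Among DNA replication genes, only *F*-cKO replicate 1 clearly carried the RNA changes into footprints. Of 42 genes, 27 had higher RNA, 14 of them buffered, 12 passed on and 1 opposite over 12 libraries. Without replicate 2 there were 8 buffered and 18 passed on. Without replicate 3 there were 9 and 17. Over 12 libraries TE was lower for 5 and higher for 0 with a median of −0.227 (−0.17 without replicate 2). TE was lower for 1 without replicate 2 or replicate 3, and for 19 without replicate 1. Footprint medians were 0.474, 0.0738 and −0.0579, with 36, 22 and 2 genes above all Ctrl values, and the share in replicate 2 is near that of all genes. Ctrl libraries set against each other had medians of 0.0407, 0.0304 and −0.054, so replicate 3 is close to the lowest Ctrl library. Of 12 replication-dependent histone genes, which share reads with copies and are uncertain, 4 had higher RNA and 3 lower TE, with a median of −0.449. The cyclin gene *Ccnb1* rose by 0.77 in RNA, with footprints of 42.1, 52.0 and 49.7 CPM in Ctrl and 60.5, 54.1 and 39.1 CPM in *F*-cKO and a TE change of −0.69. *Cdk6*, a kinase of the G1 phase, had RNA of 53.0, 50.6 and 42.8 CPM in Ctrl and 63.7, 68.7 and 69.8 CPM in *F*-cKO, and footprints of 80.8, 84.2 and 67.1 CPM in Ctrl and 82.5, 60.1 and 67.5 CPM in *F*-cKO, a buffered rise with a TE change of −0.61.

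Of 465 genes of the radial glia (RGC) list of the study, 203 had higher and 38 lower RNA, TE was higher for 11 and lower for 32, and the median was −0.129 (−0.135 without replicate 2). Without replicate 3 TE was higher for 65 and lower for 29 with a median of −0.0541. Without replicate 1 the counts were 62 and 113 with a median of −0.257. The genes with higher RNA were 4 opposite, 89 buffered, 96 passed on and 14 larger in footprints over 12 libraries. In the same order they were 2, 94, 106 and 1 without replicate 2, and 8, 39, 126 and 30 without replicate 3. Of 322 genes of the intermediate progenitor (IP) list of the study, 131 had higher and 17 lower RNA. TE was higher for 9 and lower for 30 with a median of −0.143. Counts were 37 and 21 without replicate 3 (median −0.112) and 29 and 80 without replicate 1 (median −0.258). Genes with higher RNA were 5 opposite, 58 buffered, 52 passed on and 16 larger. In the same order they were 6, 69, 53 and 3 without replicate 2, and 8, 28, 73 and 22 without replicate 3. Of 26 further radial glia genes, 14 had higher and 5 lower RNA with a median TE change of −0.0902, or 0.0113 with 8 higher without replicate 3 and −0.298 with 6 higher and 7 lower without replicate 1. Of 18 further intermediate progenitor genes, 11 had higher RNA, with a median of −0.0108 (0.0462 with TMM within each assay), or −0.216 without replicate 2, 0.254 with 6 higher without replicate 3 and −0.165 without replicate 1. *Pax6*, a transcription factor gene of radial glia, had footprints of 48.2, 49.3 and 51.8 CPM in Ctrl and 95.1, 97.8 and 44.9 CPM in *F*-cKO and a called RNA rise of 0.71. *Eomes*, that of intermediate progenitors, had footprints of 108, 112 and 97.9 CPM in Ctrl and 189.8, 148 and 92.8 CPM in *F*-cKO. Both are high in replicates 1 and 2 and below Ctrl in replicate 3.

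Of 13 deep-layer neuron genes, 7 had higher and 3 lower RNA, TE was lower for 3, and the median was −0.197 (−0.0988 without replicate 2). For 14 upper-layer neuron genes, with 2 higher and 3 lower in RNA, the median was 0.205 (0.0416 without replicate 2, −0.0456 without replicate 3 and 0.142 without replicate 1). Of 33 genes of glutamate receptors and postsynaptic scaffolds, 17 had lower and 2 higher RNA, TE was higher for 5 and lower for 0, and the median was 0.412 (0.228 without replicate 2). Without replicate 2 TE was higher for 6 and lower for 2, and without replicates 3 and 1 it was higher for 8 and 15. The 17 lower genes were 7 opposite, 7 buffered and 3 passed on over 12 libraries. Without replicate 2 they were 1 opposite, 14 buffered and 2 passed on. Without replicate 3 they were 7 opposite, 7 buffered, 2 passed on and 1 larger in footprints. Footprint medians of this list were −0.309, 0.589 and 0.114. Of 31 presynaptic genes, 11 had lower and 2 higher RNA, with 0 higher and 2 lower in TE, a median TE change of 0.129 (0.168 without replicate 2, −0.0126 without replicate 3, and 0.212 with 8 higher without replicate 1) and footprint medians of −0.459, −0.209 and 0.117.

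Genes of proteins made at the endoplasmic reticulum set *F*-cKO replicate 2 apart. Of 28 chaperones and oxidoreductases of the endoplasmic reticulum, TE was higher for 6 and lower for 0, with a median of 1.39 over 12 libraries and 0.149 without replicate 2, again with 6 higher. Without replicate 3 TE was higher for 23, and without replicate 1 for 21. Footprint medians were 0.116 in replicate 1, 2.45 in replicate 2 and 0.0433 in replicate 3, and 4 genes had lower RNA. *Calr*, a chaperone of glycoproteins, had footprints of 104, 118 and 137 CPM in Ctrl and 163, 1149.8 and 142 CPM in *F*-cKO, far above the rest in replicate 2. Of 27 genes of the translocon and of signal peptide processing, TE was higher for 3 and lower for 1, with a median of 0.7 (0.0773 without replicate 2), with 15 and 14 higher without replicates 3 and 1, and footprint medians of −0.0961, 1.37 and −0.00496.

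Of 42 genes of lysosomal and secreted hydrolases and binding proteins, 13 had lower RNA, all 13 opposite over 12 libraries, and 3 opposite, 8 buffered, 1 passed on and 1 larger without replicate 2. TE was higher for 5 (29 and 34 without replicates 3 and 1), with a median of 1.44 (0.0311 without replicate 2) and footprint medians of −0.317, 2.57 and 0.0519. Of 36 genes of extracellular matrix and secreted signals, 10 had lower and 4 higher RNA, TE was higher for 10 (24 and 33 without replicates 3 and 1) and the median was 1.79 (0.308 with 4 higher and 1 lower without replicate 2), with footprint medians of −0.654, 2.69 and 0.158. Of 7 giant cadherin genes, 5 had higher RNA, all larger in footprints over 12 libraries and all buffered without replicate 2. Their median TE change was 1.43 over 12 libraries and −0.409 without replicate 2, then with 4 lower. Without replicates 3 and 1 TE was higher for 4 and 2 of them. *Fat4*, a cadherin gene of radial glia polarity, had footprints of 55.4, 62.9 and 60.1 CPM in Ctrl and 57.5, 641 and 53.9 CPM in *F*-cKO.

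Of 49 clustered protocadherin genes, which share exons within a cluster and are uncertain, 10 had higher RNA. TE was higher for 1 over 12 libraries (median 0.518) and for 10 without replicate 1, and lower for 11 without replicate 2 (median −0.381), with footprint medians of −0.58, 1.87 and −0.0128. *Notch1*, a receptor gene of progenitor maintenance, had footprints of 20.9, 19.2 and 16.7 CPM in Ctrl and 21.5, 294 and 17.5 CPM in *F*-cKO. Further membrane protein genes shown in the study had the same form. Footprints were 84.1, 96.3 and 87.4 CPM in Ctrl and 87.2, 581 and 85.4 CPM in *F*-cKO for the ephrin receptor gene *Epha4*, 96.5, 108 and 93.1 CPM in Ctrl and 60.2, 529 and 95.1 CPM in *F*-cKO for the semaphorin receptor gene *Nrp1* and 91.3, 102 and 106 CPM in Ctrl and 71.3, 497 and 97.5 CPM in *F*-cKO for the myelin-related gene *Gpm6b*. Its neuronal relative *Gpm6a* had 561, 594 and 582 CPM in Ctrl and 290, 1781 and 533 CPM in *F*-cKO. TE changes over 12 libraries were 0.94, 1.22, 1.09 and 0.75, and without replicate 2 −0.55, −0.28, −0.25 and −0.29. The sign of TE is thus set by replicate 2 in these 4 genes.

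*Fabp7*, a lipid carrier gene of radial glia, had RNA of 721, 615 and 784 CPM in Ctrl and 576, 525 and 488 CPM in *F*-cKO, and footprints of 2015, 1924 and 1767 CPM in Ctrl and 1563, 1141 and 1977 CPM in *F*-cKO. RNA is lower in all *F*-cKO libraries, and footprints are lower in replicates 1 and 2 and within Ctrl in replicate 3. RNA fell by 0.43 and the TE change was 0.13. *Tcf4*, a transcription factor gene of neurons, had footprints of 1451, 1334 and 1341 CPM in Ctrl and 1324, 1327 and 1361 CPM in *F*-cKO and a TE change of −0.27, and its RNA was not called.

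Of 81 cytosolic ribosomal protein genes, 17 had lower RNA, TE was higher for 10 and lower for 0, and the median was 0.0848. Without replicate 2 TE was higher for 21 with a median of 0.218, and without replicate 1 for 2 with a median of −0.0277. Many of them share reads with copies and are uncertain. Of 76 mitochondrial ribosomal protein genes, 10 had lower RNA, and the median TE change was −0.0119 (0.0437 with TMM within each assay), or 0.175 with 9 higher without replicate 2, −0.104 with 7 lower without replicate 3 and −0.18 without replicate 1. Of 74 nuclear genes of the respiratory chain, 32 had lower RNA, 1 opposite, 16 buffered, 8 passed on and 7 larger over 12 libraries. Without replicate 2 they were 9 opposite, 15 buffered, 7 passed on and 1 larger. Without replicate 3 they were 3 opposite, 10 buffered, 7 passed on and 12 larger. TE was higher for 2 over 12 libraries (median 0.0245) and for 20 without replicate 2 (median 0.239). Medians were −0.0367 without replicate 3, with 3 higher and 4 lower, and −0.106 without replicate 1, with 0 higher, and footprint medians were 0.0317, −0.462 and 0.0146. Of 8 genes of the mitochondrial genome, 6 had lower RNA, TE was higher for 4 (median 1.52), for 3 without replicate 2 (median 0.638) and for 7 and 5 without replicates 3 and 1, with footprint medians of 0.399, 2.23 and −0.103. Leaving out replicate 2 thus raises the TE values of nuclear genes for mitochondria and lowers those of the mitochondrial genome.

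Of 389 genes named *Zfp*, *Zbtb* or *Zscan*, 59 had higher and 10 lower RNA, and TE was higher for 4 (1.03%) and lower for 33 (8.48%) with a median of −0.162. Without replicate 2 the counts were 9 (2.31%) and 30 (7.71%) with a median of −0.0549, and TE was lower for 54 and 57 without replicates 3 and 1. Of 39 ubiquitin-specific protease genes, 13 had higher RNA, 1 opposite, 8 buffered, 3 passed on and 1 larger over 12 libraries. Without replicate 3 there were 3 opposite, 5 buffered, 3 passed on and 2 larger. TE was lower for 5 with a median of −0.15 over 12 libraries. It was lower for 3 without replicate 2 (median −0.0648) and for 9 without replicate 1 (median −0.197). *Usp33*, a protease gene of receptor recycling, had RNA of 47.3, 45.9 and 50.5 CPM in Ctrl and 65.2, 64.5 and 66.6 CPM in *F*-cKO, and footprints of 265, 251 and 259 CPM in Ctrl and 198, 179.7 and 246 CPM in *F*-cKO. RNA is higher and footprints are lower in all *F*-cKO libraries, with a TE change of −0.76. *Pik3r3*, a regulatory subunit of lipid kinase, had RNA of 119, 112 and 104 CPM in Ctrl and 162, 155 and 152 CPM in *F*-cKO, and footprints of 62.9, 45.1 and 54.8 CPM in Ctrl and 35.9, 27.7 and 42.6 CPM in *F*-cKO, with a TE change of −1.10, and was chosen after its values were seen. Of 31 proteasome subunit genes, 2 had higher RNA, and TE was lower for 2 with a median of −0.0918, or 4 higher and 2 lower with 0.112 without replicate 2, and with medians of −0.162 and −0.203 without replicates 3 and 1.

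Of 12544 protein-coding genes with a known type, the median TE change was −0.0118. Of 356 lncRNAs the median was −0.0588 with 9 higher and 25 lower, and −0.209 without replicate 2, then with 6 higher and 41 lower. Of 71 pseudogenes, which share reads with their parent genes and are uncertain, TE was higher for 11 and lower for 2 (median 0.509), and for 26 and 2 without replicate 2 (median 0.689). For 19 snoRNAs the median was 0.947, and their fragments in Ribo-seq need not be footprints.

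Of 15 astroglial and late radial glia genes, 13 were tested for TE, 8 had lower RNA, and TE was higher for 4 with a median of 1.41 (4 higher and 0.468 without replicate 2, 4 higher without replicate 3 and 10 higher without replicate 1). Footprint medians were −0.589, 2.06 and 0.172. Summed within each assay, with scaling by library depth alone, they had 801, 808 and 784 CPM in Ctrl and 623, 609 and 627 CPM in *F*-cKO in RNA-seq. In Ribo-seq they summed to 403, 399 and 364 CPM in Ctrl and 283, 1100 and 437 CPM in *F*-cKO. *Sparcl1*, a secreted synapse organiser, was most abundant in RNA, and had footprints of 29.3, 31.3 and 45.6 CPM in Ctrl and 17.1, 206 and 45.3 CPM in *F*-cKO. *Id3*, most abundant in footprints, went the other way in replicate 2. By library depth alone it had 108, 99.6 and 74.6 CPM in Ctrl and 80.7, 42.8 and 113 CPM in *F*-cKO. In replicate 2, footprints of 9 of the 13 genes lay above all Ctrl values, beside 5668 of all 13225 genes tested. RNA sums are lower in all *F*-cKO libraries, and footprint sums are low in replicate 1, highest in replicate 2 and slightly above Ctrl in replicate 3.

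The tissue holds other cells, whose markers were summed in the same way. Beside their RNA calls stand 11.5% higher and 9.57% lower of all 16944 genes tested in RNA-seq. Endothelial markers (12, of which 5 had lower RNA) summed to 222, 228 and 250 CPM in Ctrl and 182, 169 and 174 CPM in *F*-cKO in RNA-seq, led by *Cldn5*, and to 31.6, 39 and 46.4 and to 21.4, 354 and 39.4 CPM in Ribo-seq, led by *Kdr*. Pericyte markers (8, with 1 higher and 4 lower RNA) summed to 182, 194 and 196 and to 167, 162 and 168 CPM in RNA-seq and to 79.7, 95.1 and 104 and to 86.3, 182 and 100 CPM in Ribo-seq, led by *Rgs5*. Meningeal markers (13, with 6 lower) summed to 171, 299 and 182 and to 126, 69.6 and 139 CPM in RNA-seq, led by *Cxcl12*, and to 141, 267 and 209 and to 100, 426 and 240 CPM in Ribo-seq, led by *Col1a2*. RNA sums of the 3 lists are lower in all *F*-cKO libraries, and replicate 2 of Ribo-seq has the highest footprint sum of each. *Rgs5* itself was lowest in replicate 2, with footprints of 53.3, 65.4 and 70.2 CPM in Ctrl and 65, 28.6 and 67.9 CPM in *F*-cKO. In replicate 2, footprints lay above all Ctrl values for 11 of 11 endothelial, 5 of 8 pericyte and 8 of 13 meningeal genes. Of all 13225 genes tested, 5668 did so.

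Microglial markers (12, none called of 11 tested in RNA-seq) summed to 73.2, 86.3 and 72.6 and to 73.3, 57.2 and 59.1 CPM in RNA-seq and to 26.9, 34.6 and 31.5 and to 25.7, 82 and 34.8 CPM in Ribo-seq, led by *Csf1r*. Erythroid markers (12, with 2 higher and 1 lower) summed to 386, 712 and 382 and to 332, 288 and 410 CPM in RNA-seq and to 460, 525 and 236 and to 358, 229 and 412 CPM in Ribo-seq, led by *Hba-a1*. Choroid plexus markers (10, none called of 8 tested) summed to 94.1, 1050 and 405 and to 506, 352 and 504 CPM in RNA-seq and to 459, 1980 and 571 and to 634, 1270 and 219 CPM in Ribo-seq, led by *Ttr*. Erythroid and choroid plexus sums vary among Ctrl libraries as much as between the groups.

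Markers of the ganglionic eminence and interneurons (13, with 5 higher and 1 lower) summed to 617, 624 and 619 and to 732, 634 and 542 CPM in RNA-seq, led by *Dlx1*, and to 358, 247 and 248 and to 296, 242 and 309 CPM in Ribo-seq, led by *Gad1*. Striatal markers (11, with 2 higher), led by *Ppp1r1b*, summed to 75.4, 84.5 and 79.9 and to 128, 102 and 72.1 CPM in RNA-seq and to 54.9, 46.7 and 45.3 and to 56.7, 35.4 and 38.3 CPM in Ribo-seq. Thalamic markers (9, with 2 higher and 2 lower) summed to 157, 149 and 153 and to 150, 178 and 187 CPM in RNA-seq, led by *Slc17a6*, and to 179, 155 and 139 and to 146, 158 and 184 CPM in Ribo-seq, led by *Calb2*. Sums of these 3 lists overlap between the groups.

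Epidermal markers (10, with 1 lower of 5 tested) summed to 25.7, 26.6 and 25.7 and to 19.3, 24.3 and 18.2 CPM in RNA-seq and to 23.3, 26.3 and 21.2 and to 14.5, 14.6 and 18.4 CPM in Ribo-seq, led by *Krt10*. Both sums are lower in all *F*-cKO libraries than in Ctrl, but that of Ribo-seq rests on only 2 of the markers. Liver markers (9, of which only 1 was tested in RNA-seq, and not called) summed to 1.53, 1.79 and 2.27 and to 1.43, 1.08 and 1.83 CPM in RNA-seq, led by *Trf* and with *Fgb* and *Serpina1a* at 0. In Ribo-seq, which held 5 of them, they summed to 41.8, 1.13 and 43.3 CPM in Ctrl and 1.12, 0.82 and 28.6 CPM in *F*-cKO, led by *Apob*. Liver footprints thus occur in Ctrl replicates 1 and 3 and in *F*-cKO replicate 3, the library closest to Ctrl, while the RNA sum of these genes is low in each RNA-seq library. No marker list but that of liver had a gene at 0 in all libraries of an assay. The part of these markers in the result was not tested. In bulk tissue, fewer cells of a type and less RNA or fewer footprints per cell cannot be told apart.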

How the data were processed

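RNA-seq and Ribo-seq of E15.5 cerebral cortex were compared between 3 *F*-cKO and 3 Ctrl libraries per assay, grouped by the sample labels. The authors deposited read counts per gene, which were used here, and FPKM and RPKM values, which were deposited by the authors too and did not enter the tests. The authors' notes give HISAT2 2.0.5 for RNA-seq, TopHat2 and HTSeq for Ribo-seq, and build mm10. Counts are given for 55153 genes in RNA-seq and for 54838 genes in Ribo-seq, of which 14348 have values in every library and 40490 have blanks and were left out.

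Differential TE was tested as the assay-by-genotype term of a quasi-likelihood fit in edgeR 4.0.16 (R 4.3.3), with TMM over the 12 libraries, filterByExpr within each assay (minimum count 10, minimum total count 15) and Benjamini-Hochberg adjustment over the tested genes. Calls were made at an adjusted *P* below 0.05. The same fit was run without each library, and RNA-seq and Ribo-seq were also tested separately. RiboDiff was not run. Buffered and passed on are classes by the ratio of both changes, without a test. Footprint deviations of single libraries use log2 CPM with a prior count of 2. Alternatives were DESeq2 1.42.0, limma 3.58.1 voom with quality weights, RLE scaling, TMM within each assay, no filter, blocks by replicate number, protein-coding genes only and other limits of the classes. The fits and classes were tested on simulated data, where the TE fit called most of the large and few of the small changes. Simulated libraries of an assay shared their gene means and spread apart from the changes put in. No simulated library stood apart as Ribo-seq *F*-cKO replicate 2 does, so that case was not tested.

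Named genes are the 10 with the smallest *P* in each direction over 12 libraries and without Ribo-seq *F*-cKO replicate 2, the 5 with the smallest RNA-seq *P* in each direction of the passed on and buffered classes, *Fto*, the m6A machinery, genes shown in the study, and members of gene lists. Not every gene of this rule is printed. Lists cover the m6A machinery, translation, cell division, progenitors and neurons, synapses, the secretory route, mitochondria, the proteasome and proteases, zinc finger genes and markers of other cell types. The members and lists were chosen with earlier results of these data known. A description by protein features was planned and could not be computed without protein sequences.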

Additional observations from a re-analysis of the deposited data

How the results depend on the processing

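Over 12 libraries, DESeq2 called 4 genes with higher and 35 with lower TE, and limma voom with quality weights called 21 and 89. Leaving out each library in turn gave 0 to 4 genes higher and 0 to 11 lower, and only the fits without Ribo-seq *F*-cKO replicate 2 (1 lower) and replicate 3 gave any call. RLE scaling, TMM within each assay, no filter, both blocks and protein-coding genes only gave 0 called genes, as the 12-library fit did (edgeR, 411 higher and 817 lower at an unadjusted *P* below 0.05). For Ribo-seq alone DESeq2 called 5 genes higher and 1 lower, and leaving out a library gave 0 to 1 lower.

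Without Ribo-seq *F*-cKO replicate 2, settings were added after the data were seen. DESeq2 called 77 higher and 222 lower, no filter left 0 lower, and leaving out a further library gave 0 to 299 higher and 0 to 431 lower. The upper ends are those of fits with a single Ribo-seq *F*-cKO library, which is assumed to vary like the others.

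RNA-seq calls ranged from 984 to 1868 higher and from 559 to 1606 lower with a library left out. With the replicate number as a block they were 1275 and 855, and the classes were 279 opposite, 974 buffered, 567 passed on and 172 larger in footprints. By the labels the samples share only a number. Deviations from the group mean of RNA-seq and Ribo-seq libraries with the same number correlated at 0.179, 0.276 and 0.116 in Ctrl and at −0.0204, −0.0471 and −0.287 in *F*-cKO. Ctrl and *F*-cKO libraries of the same number cannot share an animal. They correlated at 0.179, 0.165 and −0.266 in Ribo-seq and at −0.106, −0.256 and −0.239 in RNA-seq. Libraries of different animals thus correlate in a like range, so these values cannot decide whether numbers mark pairs. With a library left out, opposite genes ranged from 176 to 892, buffered from 682 to 2134, passed on from 465 to 1057 and larger from 63 to 663. A limit of 0.25 in place of 0.5 gave 792 buffered and 1491 passed on genes, and a limit of 0.75 gave 429 passed on genes. Restricted to RNA changes over 1.5-fold there were 98 opposite, 494 buffered, 295 passed on and 40 larger genes.

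TE of *Dcc*, 0.04 over 12 libraries, had the other sign with DESeq2 (−0.0426), RLE scaling (−0.0461), the replicate block (−0.367), the block within genotype (−0.786) and voom (−1.54), and ranged from −1.67 to 0.368 with a library left out. TE of *Fzd3*, 0.32, had the other sign with the block within genotype (−0.267) and voom (−1.07), and ranged from −1.03 to 0.62. DESeq2 called TE of *Zfp41*, *Zbtb37*, *Pank3*, *Cst3* and *Gm2a*, and voom that of *Zfp41*, *Zbtb37*, *Pank3*, *Rnase4*, *Cst3* and *Erp29*, all in the direction of the 12-library fit. Voom also called *Dcc* and *Fzd3* lower. Of the 12 genes whose values were kept under these settings, no other changed direction. TE of *Fto* was −0.875 without RNA-seq *F*-cKO replicate 2. All genes entered these fits, but values of further genes of the report were kept only without each Ribo-seq *F*-cKO library, where several change sign. The cause of the differences between libraries was not tested.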
